A study of Mus musculus with 9 samples.

Results

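Expression in mouse hearts was followed for 10 genes used as marks of tissue-resident, scavenging macrophages: Cd163, Mrc1, Lyve1, Folr2, Timd4, Clec10a, Ccl8, Cbr2, F13a1 and Gas6. They were taken by symbol from the counts, where all 10 had a row among 13890 genes, and all 10 were among the 13364 genes that passed the filter on low counts. Ccl8 and Clec10a were among the largest falls of A + T against T in earlier results of these data, so their values in that comparison are a description. RNA came from whole hearts of 9 male NSG mice, an immunodeficient strain with neither functional lymphocytes nor natural killer cells, which were 8 weeks old at enrolment and sampled about 3 weeks after surgery. Sham mice (S, animals 2, 3 and 5) had surgery without tumour cells and saline. Mice labelled as hosts of HCT116, a human colorectal cancer line placed in the spleen to seed the liver, had saline (T, animals 11, 12 and 15). Hosts labelled HCT116 with ACVR2B/Fc had the same cells and weekly ACVR2B/Fc, a soluble activin receptor fused to an antibody Fc fragment that binds activins and myostatin (A + T, animals 20, 21 and 22). Sham mice given ACVR2B/Fc are not analysed here. The comparisons ask how the heart differed between hosts and sham mice, and whether ACVR2B/Fc changed it.

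Macrophages are present in the healthy heart, where part of the population is seeded before birth and renews itself locally. These cells engulf dying cells, debris and haemoglobin, and they carry receptors for sugars, hyaluronan, folate and phosphatidylserine. Cells that arrive later from blood monocytes carry fewer of these receptors and more of the chemokine receptor Ccr2. The 10 genes divide into scavenger receptors (Cd163, Mrc1, Lyve1), receptors for dying cells and folate (Timd4, Folr2), a lectin (Clec10a), secreted proteins (Ccl8, Gas6) and enzymes (F13a1, Cbr2). Several are not limited to macrophages. Lyve1 also marks lymphatic endothelium, Cbr2 is abundant in lung, F13a1 is made by megakaryocytes, and Gas6 is made by fibroblasts and endothelium. In RNA of a whole heart, fewer cells of a type and less RNA per cell cannot be told apart.

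Libraries held between 12392222 and 19732471 counts, and 3 counts, taken as the floor of a library, corresponded to between 0.152 and 0.281 CPM, the unit of counts scaled to library size used here. The ribosomal gene Rn45s took 4.57% to 19.6% of the counts. Genes of heart muscle dominated, with 38679 to 61039 CPM over 6 markers. A pair of libraries stood apart. Scgb1a1, a secretoglobin of airway cells, had 17508 counts in A + T animal 22 and 1345 in T animal 12, and at most 27 in the other 7 libraries. By 1 measure the labels of the T libraries are in doubt, since their fold changes against S were closest to those the study lists for sham mice given ACVR2B/Fc. T therefore means the libraries labelled T, and A + T against S compares none of them, although they enter its estimate of the spread. Calls among the 10 that change with S and A + T alone in the fit are given beside their genes.

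The sequence upstream of the start site was available for 8 of the 10 genes in RefSeq (GRCm38.p6), and not for Clec10a or Lyve1. Ccl8 (chromosome 11 from 82115185 to 82116799) and Cd163 (chromosome 6 from 124304656 to 124330527) are shown, because Ccl8 had its lowest and Cd163 its highest mean level in A + T. The 250 bases before the RefSeq start, on the plus strand, are chr11:82114935-82115184 for Ccl8 and chr6:124304401-124304650 for Cd163. For Cd163 the RefSeq start lies a few bases before the start of the gene given above, which is from GENCODE. Capitals mark matches, on either strand, to GAGGAA, which PU.1 can bind, and to TGCTGA, a half-site of MAF factors.
Ccl8: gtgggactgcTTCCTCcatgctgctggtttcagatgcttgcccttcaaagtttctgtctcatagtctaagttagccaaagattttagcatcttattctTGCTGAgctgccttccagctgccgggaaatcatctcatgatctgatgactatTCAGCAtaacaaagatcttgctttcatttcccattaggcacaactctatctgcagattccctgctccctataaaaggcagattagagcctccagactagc
Cd163: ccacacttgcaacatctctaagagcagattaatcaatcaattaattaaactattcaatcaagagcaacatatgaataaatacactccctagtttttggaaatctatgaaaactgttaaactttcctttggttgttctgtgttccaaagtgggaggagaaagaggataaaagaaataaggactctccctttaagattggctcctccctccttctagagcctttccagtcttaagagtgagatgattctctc

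The Ccl8 sequence held GAGGAA at base -240 on the minus strand, and TGCTGA at -152 on the plus and at -100 on the minus strand, counted back from the start. No match lay in the Cd163 sequence. In windows of 300 bases, which add 50 bases after the start, GAGGAA was found for Cbr2, Ccl8, F13a1 and Mrc1, 4 of the 8 genes, and in 28.3% of all 32851 promoters. TGCTGA was found for Cbr2, Ccl8, Folr2 and Timd4, and in 19.5% of all promoters. CAGACA, which SMAD proteins can bind, was found for Gas6 and Timd4 and in 6913 of all promoters. TTC and GAA with NNNN between them, a form bound by STAT6, were found only for Cbr2 of the 8 and in 6.95% of all. The STAT motif TTC and GAA with NNN between them (8.30% of all), the NF-kB motif GGGA and TTCC with NN between them (1.47%) and the IRF motif of GAAA repeated after NN (3.44%) were found for none of the 8. A match here is a run of letters and not a binding site.

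On the deposited log2 values, which behaved as scaled for gene length and so can be set side by side, Gas6 had the highest mean in each group, although in A + T the Cbr2 value of animal 22 (7.36) lay above every Gas6 library (up to 6.42). In S it had a mean of 6.24 ± 0.05 (SD, n = 3). F13a1 (4.03 ± 0.22) and Cbr2 (3.90 ± 0.25) came next and overlapped. Lyve1 (3.48 ± 0.24), Mrc1 (3.18 ± 0.04), Folr2 (2.86 ± 0.13) and Cd163 (1.90 ± 0.06) followed, each with all 3 libraries above those of the next gene. Timd4 (0.48 ± 0.20), Clec10a (0.46 ± 0.26) and Ccl8 (0.19 ± 0.48) were lowest and overlapped. In T, Ccl8 (2.57 ± 0.40) had moved to the sixth place, where it overlapped Cd163, and Timd4 (0.31 ± 0.66) was last. In A + T, Clec10a (-0.47 ± 0.13) and Ccl8 (-1.38 ± 0.65) were the last, and all Clec10a libraries lay above all Ccl8 libraries. Values of Ccl8 in A + T rest on 3 or fewer counts a library.

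**Figure D1:**
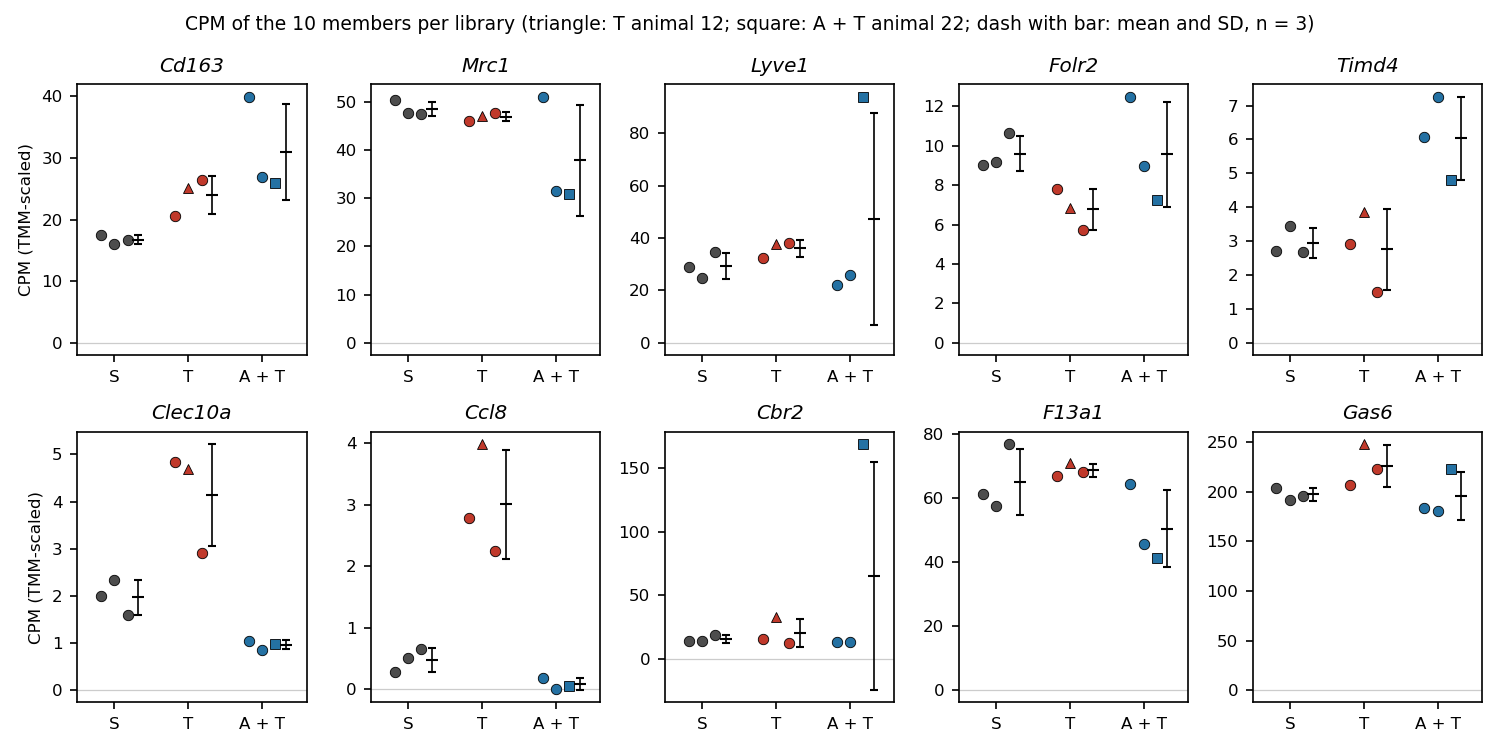
CPM (y axis, linear) of each of the 10 genes in the 3 libraries of S, T and A + T, each point a library and each dash with a bar the mean and SD of a group. Ccl8 and Clec10a were highest in T and lowest in A + T with no overlap, and single libraries of A + T reached 168.9 CPM for Cbr2 and 94.0 CPM for Lyve1.

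In T against S, Ccl8, Clec10a and Cd163 rose, 3 genes of the 10. None fell, and 7 did not pass the test (edgeR's quasi-likelihood test, adjusted P-value under 0.05 over all genes). At an unadjusted P-value under 0.05, 1 gene was lower (Folr2), and DESeq2 and limma-voom each called 0 falls. Across all genes 21.2% passed, 10.3% as rises and the rest as falls. The median log2 fold change of the 10 genes was 0.25, and that of all genes -0.00. Libraries of the groups did not overlap for 5 of the 10 genes, and for 42.6% of all genes. Some of these values were known when the genes were chosen, so the P-values below are not independent support. With 3 against 3 libraries, an exact permutation test cannot go below P = 0.1.

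Ccl8, a chemokine that attracts monocytes and other leukocytes, had 5, 10 and 9 counts in S and 45, 67 and 24 in T. All T libraries lay above all S libraries, with means of 3.00 ± 0.89 CPM in T and 0.478 ± 0.19 in S (SD, n = 3). The log2 fold change was 2.67 ± 0.44 (standard error), or 6.37-fold (edgeR adjusted P = 0.00234), a call kept by all 9 fits with 1 animal removed. In A + T the counts were 3, 0 and 1. All A + T libraries were at or under the floor, and below all S and all T libraries. With group means set against 3 counts in each library, Ccl8 was at least 15.4-fold lower in A + T than in T and at least 2.45-fold lower than in S. These bounds leave out counting error, and the closest libraries, S animal 2 and A + T animal 20, had 5 and 3 counts. The edgeR test of A + T against S did not pass (adjusted P = 0.0686), with a call in 1 of the 9 fits without an animal. DESeq2 called that fall (adjusted P = 0.0485) and limma-voom did not (adjusted P = 0.0507).

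Clec10a (chromosome 11 from 70156197 to 70170834), a galactose-type lectin, had 36, 46 and 22 counts in S, 78, 79 and 31 in T, and 17, 12 and 16 in A + T. After scaling, the groups stood in the order T (4.14 ± 1.08 CPM), S (1.97 ± 0.37) and A + T (0.966 ± 0.096), and none of the 3 overlapped another. In T against S it rose by 1.07 ± 0.25 on the log2 scale (edgeR adjusted P = 0.0131), a call held in 7 of the 9 fits without an animal and lost without S animal 5 (adjusted P = 0.0512) or T animal 11 (adjusted P = 0.0569). Against T, A + T had a log2 fold change of -2.10 ± 0.27. Against S it was -1.03 ± 0.28 (edgeR adjusted P = 0.0499), just inside the threshold. Only the fit without T animal 15 kept that last call among the 9, and with S and A + T alone in the fit the adjusted P was 0.0598 for the same difference of -1.03. Its paralog Mgl2, which lies 18.6 kb away, is described below, and reads that the 2 genes share would be left out of counts of uniquely mapped reads.

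Cd163, the receptor that takes up haptoglobin bound to haemoglobin, measured 17.6, 16.1 and 16.6 CPM in S, 20.6, 25.1 and 26.4 in T, and 39.9, 27.0 and 25.9 in A + T. Every T and every A + T library exceeded every S library, while T and A + T overlapped. It rose by 0.51 ± 0.16 on the log2 scale in T against S (edgeR adjusted P = 0.0481), just inside the threshold. That call was lost in 5 of the 9 fits without an animal, those without S animal 2, 3 or 5 or T animal 12 or 15 (highest adjusted P = 0.134), and under scaling by library size only (adjusted P = 0.110). The rise of A + T against S was 0.89 ± 0.16, or 1.85-fold (edgeR adjusted P = 0.0118). The call held in 8 of the 9 fits, the exception being the fit without S animal 3 (adjusted P = 0.0572), and with S and A + T alone in the fit (adjusted P = 0.0233). Against T, the log2 fold change of A + T was 0.37 ± 0.16.

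**Figure D2:**
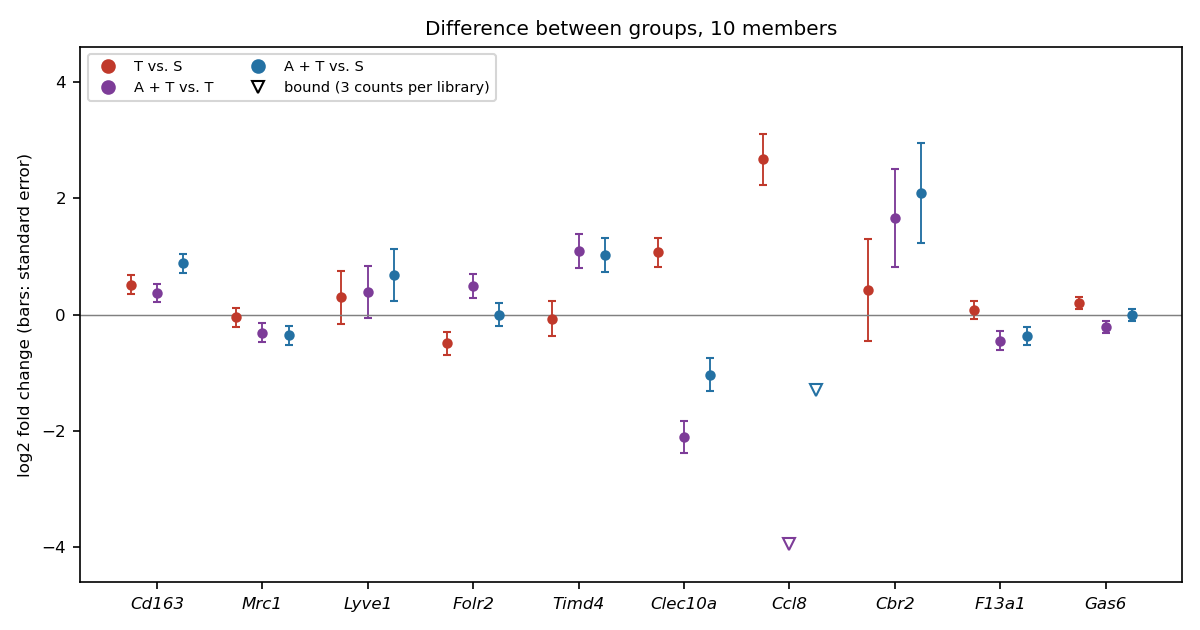
Log2 fold change (y axis) of each gene in T against S, A + T against T and A + T against S, with bars for the standard error. Open triangles are bounds for Ccl8 computed against 3 counts per library, and the widest bars are those of Cbr2 and Lyve1.

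In A + T against S, Cd163 was the 1 gene of the 10 that rose and Clec10a the 1 that fell, where 4.67% of all genes rose and 3.64% fell, 8.31% in all. The median log2 fold change of the 10 was -0.01 beside 0.00 over all genes. Groups did not overlap for 4 of the 10, which were Cd163 and Timd4 above S and Clec10a and Ccl8 below it, and for 32.4% of all genes. In A + T against T, 2 of the 10 genes passed the threshold as falls (Ccl8 and Clec10a) and none as a rise (3 rises at an unadjusted P-value under 0.05, 1 with DESeq2, 0 with limma-voom), where 5.88% of all genes passed it, 2.79% as falls and 3.09% as rises. Those 2 genes were chosen on this contrast, so their count is a description. The median of the 10 was 0.08 and that of all genes 0.01. Groups did not overlap there for 4 of the 10 (Timd4 above, Ccl8, Clec10a and F13a1 below), and for 25.4% of all genes. T against S and A + T against T share the T libraries, and the values of a gene in them are not independent.

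Timd4 encodes a receptor for phosphatidylserine on dying cells and marks macrophages that maintain themselves without monocytes. It measured 2.71, 3.45 and 2.68 CPM in S, 2.91, 3.86 and 1.496 in T, and 6.06, 7.25 and 4.80 in A + T. All A + T libraries lay above all others, and S and T overlapped. The log2 fold change was 1.09 ± 0.29 in A + T against T and 1.03 ± 0.29 in A + T against S, where it was just outside the threshold (edgeR adjusted P = 0.0536). It passed there in 3 of the 9 fits with an animal removed, those without T animal 12 or 15 or A + T animal 22 (lowest adjusted P = 0.0223), and with S and A + T alone in the fit (adjusted P = 0.0299). It also passed with DESeq2 (adjusted P = 0.0159), with limma-voom (adjusted P = 0.0441) and with at least 10 counts in every library (edgeR adjusted P = 0.0472). It did not pass in edgeR with upper-quartile scaling (adjusted P = 0.0523), library size only (0.0956), no filter (0.0566) or without Rn45s (0.0541). Limma on the deposited log2 values did not call it either (adjusted P = 0.0990). In T against S the value was -0.07 ± 0.30 (adjusted P = 0.898).

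Folr2, the folate receptor beta of resident macrophages, measured 9.01, 9.18 and 10.6 CPM in S, 7.80, 6.83 and 5.70 in T, and 12.5, 8.97 and 7.27 in A + T. T lay below S with no overlap, and A + T overlapped both. The log2 fold change of T against S was -0.49 ± 0.20 and did not pass (edgeR adjusted P = 0.108). That of A + T against S was -0.00 ± 0.20 (adjusted P = 0.997).

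Mrc1, the mannose receptor, measured 50.3, 47.7 and 47.6 CPM in S, 46.0, 47.1 and 47.8 in T, and 51.1, 31.5 and 31.0 in A + T. Animal 20 of A + T lay above every other library, and animals 21 and 22 below all of them. The log2 fold change was -0.05 ± 0.16 in T against S (edgeR adjusted P = 0.863), -0.31 ± 0.16 in A + T against T and -0.36 ± 0.16 in A + T against S (adjusted P = 0.194). Without animal 20 the last 2 values were -0.59 and -0.64, and both passed the threshold (against S with adjusted P = 0.00528). In each of the 2 comparisons this was the only 1 of the 9 fits without an animal that gave a call.

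F13a1 encodes the A subunit of coagulation factor XIII, which cross-links fibrin and is stored in macrophages. It measured 61.1, 57.3 and 76.8 CPM in S, 66.9, 70.8 and 68.1 in T, and 64.2, 45.7 and 41.3 in A + T, where animals 21 and 22 were again lower than animal 20. A + T lay below T with no overlap (log2 fold change -0.44 ± 0.16, and -0.66, past the threshold, without animal 20). Against S, the value of A + T was -0.37 ± 0.16 (edgeR adjusted P = 0.174), and in T against S 0.08 ± 0.16 (adjusted P = 0.759). Without animal 20 the value against S was -0.58 and passed (adjusted P = 0.0276). No other of the 9 fits without an animal called F13a1 in A + T against T or against S. F13a1 and Mrc1 had a Pearson r of 0.87 over the 9 libraries, which share group and depth. Of 7 megakaryocyte and platelet genes none passed edgeR's test in any comparison (1 at an unadjusted P-value under 0.05, 0 with DESeq2 or limma-voom), and their summed level of 28.9 to 86.8 CPM in S was 27.3 to 37.1 in T and 26.3 to 69.7 in A + T.

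Gas6 bridges phosphatidylserine on dying cells to the TAM receptors Axl, Mertk and Tyro3. Its 3 libraries lay between 191.6 and 204.4 CPM in S, between 207.0 and 248.3 in T, and between 180.6 and 223.6 in A + T. T lay above S with no overlap by 0.20 ± 0.10 on the log2 scale, which did not pass the test (edgeR adjusted P = 0.198). The log2 fold change was -0.21 ± 0.10 in A + T against T and -0.01 ± 0.10 in A + T against S (adjusted P = 0.957). All 6 fibroblast genes fell in T against S, the most Col3a1 (-1.98 ± 0.27, edgeR adjusted P = 0.000989), and 4 of the 6 rose in A + T against T. The latter number was 0 without T animal 11 and 2 with T and A + T alone in the fit. Their part in the Gas6 values was not tested.

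Lyve1, the hyaluronan receptor of resident macrophages and lymphatic vessels, measured 28.9, 24.9 and 34.7 CPM in S, 32.5, 37.9 and 38.0 in T, and 22.1, 25.8 and 94.0 in A + T. Animal 22 held 28.8% of all Lyve1 counts, and the other A + T libraries lay in or below the range of S. The log2 fold change of A + T against S was 0.69 ± 0.44 (edgeR adjusted P = 0.356) with animal 22 and -0.29 without it. That of A + T against T was 0.39 ± 0.44 with it and, past the threshold, -0.60 without it, and that of T against S was 0.30 ± 0.45 (adjusted P = 0.676). No other of the 9 fits without an animal called Lyve1 in A + T against T. Of 5 lymphatic genes tested only Flt4, a receptor of lymphatic growth factors, passed, as a fall in T against S (-0.53 ± 0.14, adjusted P = 0.0213) and A + T against S (-0.60 ± 0.14, adjusted P = 0.0285). The former call was lost without S animal 2 or T animal 11 or 12, and the latter without S animal 2 or 3 or A + T animal 20 or 21. Their summed level in A + T (102.7 to 129.9 CPM) reached no higher than in S (127.9 to 133.0). Prox1 was the largest part of that sum (mean of 71.0 CPM in S). Genes of this list did not move together in animal 22, where Pdpn had 20.8 CPM beside at most 8.53 elsewhere. Prox1 (45.9 CPM) and Reln (4.62 CPM) were at their lowest there, as was the sum of the 6 markers of heart muscle (38679 CPM). Whether the Pdpn and Prox1 counts came from lymphatic vessels was not tested.

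Cbr2, a carbonyl reductase, measured 14.0, 13.5 and 18.7 CPM in S, 15.5, 33.1 and 12.3 in T, and 13.4, 12.9 and 168.9 in A + T. Animal 22 alone held 56.5% of all its counts and stood 12.8-fold above the mean of the other A + T libraries, and T animal 12 stood 2.38-fold above the other T libraries. The log2 fold change was 0.43 ± 0.87 in T against S (edgeR adjusted P = 0.764), 1.67 ± 0.85 in A + T against T and 2.09 ± 0.86 in A + T against S (adjusted P = 0.155). Without animal 22 the last 2 were -0.65 and -0.21, and without T animal 12 the first was -0.13.

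The same animals carried the genes of airway and lung. Of 10 such genes, 5 had a row, and their summed level was 1608 CPM in A + T animal 22, 132.4 in T animal 12 and 1.08 to 3.35 in the other 7 libraries. Sftpb and Ager, made by alveolar cells, had 3230 and 2809 counts in animal 22 and at most 10 in any other library. Cyp2f2, of airway club cells, had 2563 counts in animal 22, 472 in T animal 12 and at most 12 elsewhere. Scgb3a1, another secretoglobin, differed, with 394 counts in T animal 12, 7 in animal 22 and at most 18 elsewhere. It alone of the 5 passed the filter on low counts, and edgeR called it as a rise in T against S. Without each animal the number called there was 0 to 1. The part of lung RNA in the Cbr2 and Lyve1 values was not tested. S100a8 and S100a9, of neutrophils, were also highest in animal 22, S100a9 with 1830 counts beside at most 188 elsewhere.

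**Figure D3:**
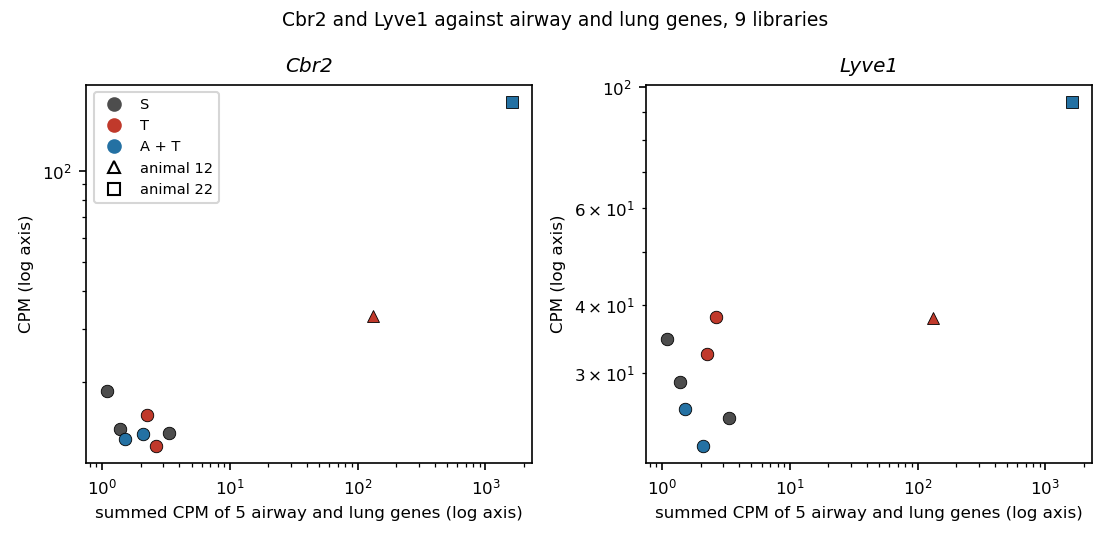
CPM of Cbr2 and Lyve1 (y axes, log) against the summed CPM of 5 airway and lung genes (x axis, log), each point 1 of the 9 libraries. Animal 22 of A + T (square) is highest on both axes of both plots, and T animal 12 (triangle) is second for Cbr2 at 33.1 CPM.

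Genes carried by macrophages in general were counted beside the 10. Of 17 pan-macrophage genes, 2 rose in T against S, the most Fcgr1, a high-affinity antibody receptor (0.76 ± 0.23, edgeR adjusted P = 0.0384), and none fell (2 at an unadjusted P-value under 0.05, 0 with DESeq2 or limma-voom). There were 12 rises in A + T against T and 13 in A + T against S, with none falling in either, also with DESeq2 or limma-voom or at an unadjusted P-value under 0.05 (0 genes). Lyz2, which encodes lysozyme, rose most, by 1.44 ± 0.23 in A + T against T (adjusted P = 0.00864) and by 1.37 ± 0.23 in A + T against S (adjusted P = 0.00836). Medians of the 17 log2 fold changes were 0.17, 0.70 and 0.78 in the same order. The count in A + T against T fell to 1 without T animal 11, to 7 without A + T animal 20 and to 4 with T and A + T alone in the fit, whereas that in A + T against S stayed between 9 and 13 without each animal. In T against S the count was 0 without S animal 2, 3 or 5 or T animal 12, and 1 without T animals 11 or 15 or A + T animal 20.

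Set against the mean log2 CPM of those 17 genes, 7 of the 10 genes had a lower mean in A + T than in S. The mean of the 17 was 3.69 for S, 3.70 for T and 4.48 for A + T. Because that mean was itself higher in A + T, a gene with an unchanged CPM lies lower there on this scale. Relative to the mean, 6 genes lay below S with no overlap in A + T and none above. The differences of group means on this log2 scale were -1.73 for Clec10a, -1.19 for Mrc1, -1.18 for F13a1, -0.83 for Folr2 and -0.81 for Gas6, with Ccl8 at or under the floor. Cd163 (0.06), Timd4 (0.20), Lyve1 (-0.43) and Cbr2 (0.22) overlapped S. Against T, 6 genes again lay below with no overlap, among them Mrc1 (-1.14) and Cd163 (-0.44). In T against S, 5 lay above (Ccl8, Clec10a, Cd163, Lyve1 and Gas6) and Folr2 below (-0.51). Folr2 and Gas6 had direct log2 fold changes of -0.00 and -0.01 in A + T against S. Their values on this scale thus come from the higher mean of the 17 genes. The share of all genes below S or T on this scale was not computed. The measure was chosen after the values were seen and carries no test.

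**Figure D4:**
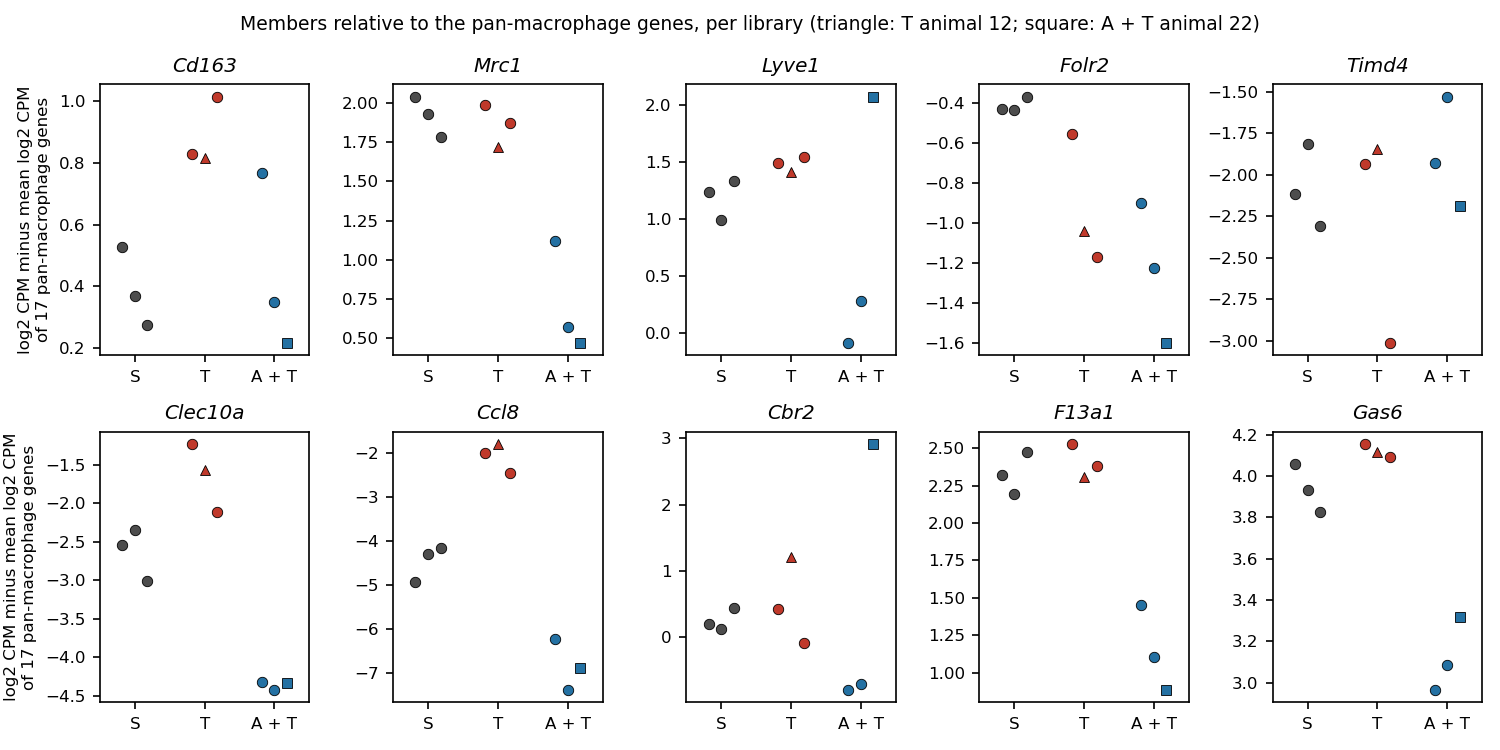
Log2 CPM of each gene minus the mean log2 CPM of 17 pan-macrophage genes (y axis), each point a library of S, T or A + T. Mrc1, F13a1, Gas6 and Clec10a lay lower in all A + T libraries than in any other, and the Ccl8 points of A + T rest on 3 or fewer counts. The mean of the 17 genes was itself higher in A + T, which lowers a gene of unchanged CPM there.

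Further genes known from resident macrophages did not move as 1 group. Of 12 tested, 4 rose and 1 fell in A + T against S, 1 rose and 2 fell in A + T against T, and 1 rose and 2 fell in T against S. Without each animal the numbers called were 2 to 5 in A + T against S (2 without S animal 3), 1 to 5 in A + T against T (1 without T animal 11, 5 without A + T animal 22) and 1 to 4 in T against S (1 without S animal 2 or 5 or T animal 11 or 12). Vsig4, a complement receptor that takes up opsonized particles, rose by 3.03 ± 0.29 in A + T against T (edgeR adjusted P = 0.00248) and by 2.48 ± 0.28 in A + T against S (adjusted P = 0.00189). It had 71, 160 and 115 counts in sham hearts, 56, 106 and 42 in T, and 740, 477 and 542 in A + T. Cd5l, a secreted scavenger protein of macrophages, rose most in A + T against S (6.85 ± 1.75, adjusted P = 0.0401) from 2, 2 and 6 counts to 24, 819 and 175. In T it had 6, 193 and 8 counts, and A + T against T did not pass (2.42 ± 1.17, adjusted P = 0.253). Mgl2, the paralog of Clec10a, fell in A + T against T (-1.37 ± 0.34, adjusted P = 0.0430) and A + T against S (-1.71 ± 0.33, adjusted P = 0.0149). Where Clec10a rose, in T against S, Mgl2 had a value of -0.34 ± 0.31 (adjusted P = 0.477). Ccl6, a chemokine, rose in T against S (1.61 ± 0.33, adjusted P = 0.00700) and in A + T against S (2.05 ± 0.33, adjusted P = 0.00726). It did not pass in A + T against T (0.44 ± 0.31, adjusted P = 0.429).

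Ccl8 lies in a cluster of chemokine genes on chromosome 11, 11.8 kb from Ccl12. Ccl12, a ligand of Ccr2, had 10, 11 and 10 counts in S, 16, 19 and 10 in T, and 4, 2 and 0 in A + T, and fell in A + T against T (-2.91 ± 0.58, edgeR adjusted P = 0.0210). Ccl7, another ligand of Ccr2, fell in T against S (-1.52 ± 0.37, adjusted P = 0.0166), where Ccl8 rose. Ccr8, the main receptor of mouse Ccl8, had no row in the counts and could not be analysed.

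Partners of the other genes were described by list. Of 7 monocyte genes, 2 rose in A + T against T and 2 in A + T against S, with Ccr2 at 2.74 ± 0.44 (edgeR adjusted P = 0.00726) and Itgal at 2.41 ± 0.30 (adjusted P = 0.00286) in the latter. In A + T against T 1 monocyte gene was left in 7 of the 9 fits without an animal. Of 11 TAM receptor and apoptotic cell uptake genes, 1 rose and 2 fell in T against S, and Axl, a receptor of Gas6, fell by 0.83 ± 0.16 on the log2 scale (adjusted P = 0.00454). Mertk had values of -0.12 ± 0.27 (adjusted P = 0.783) in T against S and 0.51 ± 0.26 (adjusted P = 0.240) in A + T against S. Itgb5, an integrin subunit, rose in T against S (0.43 ± 0.07, adjusted P = 0.00241) and fell in A + T against T (-0.43 ± 0.07, adjusted P = 0.00935), and no gene of the list passed edgeR's test in A + T against S (2 at an unadjusted P-value under 0.05, 1 with DESeq2, 0 with limma-voom, and 1 with edgeR without A + T animal 20). Of 10 haem and iron genes, downstream of Cd163, 2 rose and 1 fell in T against S, 1 rose in A + T against T and 3 rose in A + T against S. The last number was 0 to 2 in all 9 fits without an animal and 1 with S and A + T alone, and that in T against S was 1 without S animal 5 or T animal 11. Hmox1, which breaks down haem, rose by 1.11 ± 0.22 in T against S (adjusted P = 0.00535) and 0.96 ± 0.22 in A + T against S (adjusted P = 0.0249). The iron exporter Slc40a1 fell in T against S (-0.64 ± 0.16, adjusted P = 0.0170) and rose in A + T against T (1.03 ± 0.16, adjusted P = 0.00754).

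Other receptors of the same families were counted by list. Of 11 further scavenger receptors, 1 rose and 5 fell in T against S, 3 rose in A + T against T and 1 rose in A + T against S. Without each animal the number called was 1 to 6 in T against S (3 or fewer without any 1 animal of S or T) and 1 to 5 in A + T against T (1 without T animal 11, 5 without A + T animal 22). Msr1, the class A receptor for modified lipoproteins, rose in A + T against T (1.97 ± 0.25, edgeR adjusted P = 0.00355) and A + T against S (2.40 ± 0.25, adjusted P = 0.00149). Cxcl16, a membrane-bound chemokine that takes up oxidized lipids, fell most in T against S (-1.07 ± 0.18, adjusted P = 0.00294), and the fatty acid transporter Cd36 rose there (0.31 ± 0.09, adjusted P = 0.0410). Of 11 further C-type lectins, 1 fell in T against S, 5 rose and 1 fell in A + T against T, and 3 rose and 2 fell in A + T against S. The fall in A + T against T was Mgl2, counted above among the resident macrophage genes too. The 6 called in A + T against T became 1 to 4 in the 9 fits without an animal, with 1 without T animal 11, 3 without any 1 animal of S, T animal 15 or A + T animal 20, and 2 with T and A + T alone in the fit. The 5 called in A + T against S became 2 without S animal 2 and 1 without S animal 3, and the 1 in T against S became 2 without T animal 12. Clec7a, a receptor for fungal glucans, rose most in A + T against T (2.13 ± 0.32, adjusted P = 0.00722) and Clec4a2 most in A + T against S (1.89 ± 0.36, adjusted P = 0.0142). Mrc2, a collagen receptor related to Mrc1, fell in T against S (-1.48 ± 0.19, adjusted P = 0.000756) and A + T against S (-0.87 ± 0.18, adjusted P = 0.0201).

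**Figure D5:**
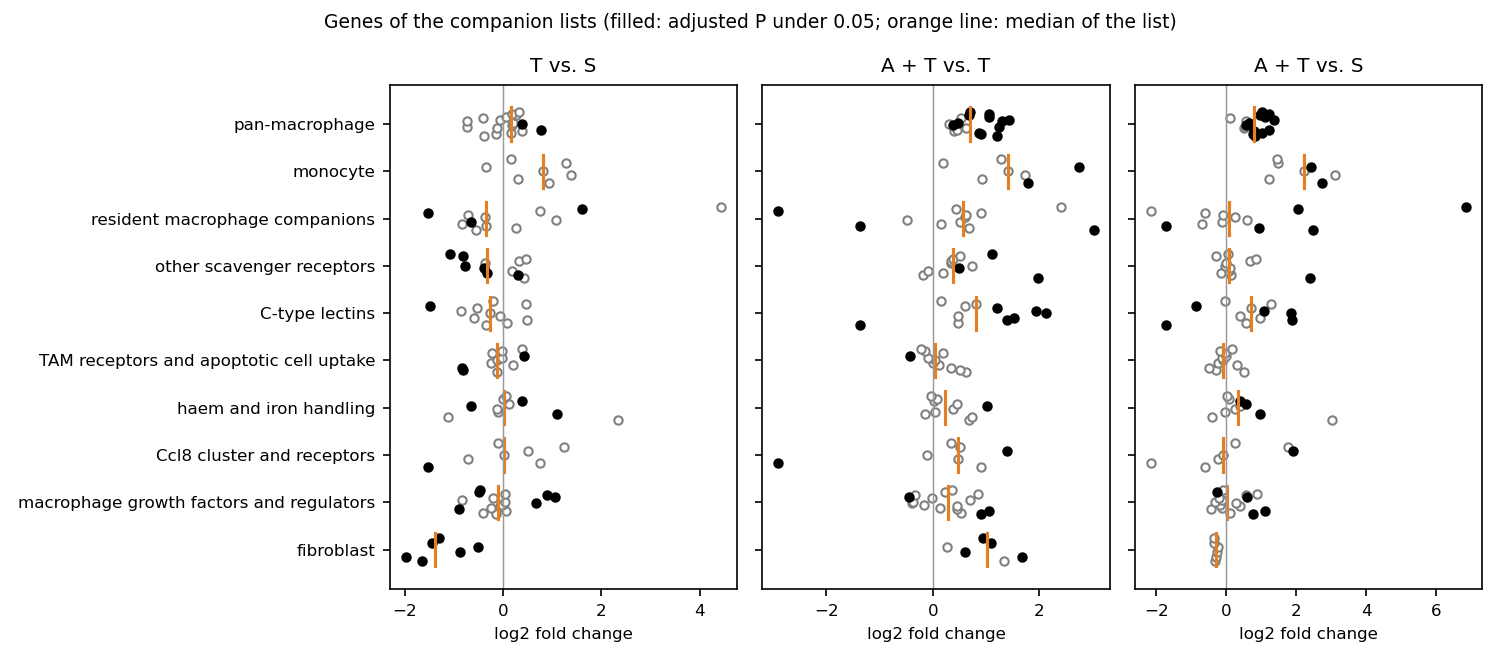
Log2 fold change (x axes) of the genes tested in 10 companion lists (rows) in the 3 comparisons, each circle a gene, filled where the adjusted P-value was under 0.05, with the median of each list as a line. All pan-macrophage circles lie right of 0 in both comparisons with A + T, and the fibroblast circles lie left of 0 in T against S.

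Growth factors and regulators of macrophages were the last list, with 16 genes tested. In T against S 3 rose and 3 fell, in A + T against T 2 rose and 1 fell, and in A + T against S 3 rose and 1 fell. In A + T against T the number called was 1 without T animal 11 and 5 without A + T animal 22, and in A + T against S it was 2 without S animal 2 or 3. Spi1, which encodes PU.1, rose in A + T against T (1.06 ± 0.21, edgeR adjusted P = 0.0210) and A + T against S (1.12 ± 0.21, adjusted P = 0.0127). Stat3 rose in T against S (1.05 ± 0.10, adjusted P = 0.000175) and fell in A + T against T (-0.44 ± 0.10, adjusted P = 0.0310). Csf1, the growth factor on which macrophages depend, fell in T against S (-0.90 ± 0.21, adjusted P = 0.0121), and the glucocorticoid receptor gene Nr3c1 fell in A + T against S (-0.25 ± 0.07, adjusted P = 0.0488). Maf, a factor of resident macrophages, passed in no comparison, with a value of 0.40 ± 0.23 (adjusted P = 0.293) in A + T against S.

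The genes whose log2 CPM followed the mean standardised profile of the 10 most closely over the 9 libraries were Aida (Pearson r = 0.94), Ufm1 (0.93), Ankrd63 (0.93), Stx7 (0.90) and Haus7 (0.88). For single genes, the closest were Hbs1l, Gpd1 and Adora1 for Ccl8 (r of 0.96, 0.95 and 0.95), and Park2, Gyg and Gm19277 for Clec10a (0.98, 0.97 and 0.97). Pan3, Polk and Dennd1c were closest to Cd163 (0.96, 0.96 and 0.95). Bloc1s3, Scnn1a and Rab11fip1 were closest to Cbr2 (0.98, 0.97 and 0.96), for which animal 22 sets most of the spread. Among the 10, Cbr2 and Lyve1 had an r of 0.92, which shares that animal. These values describe 9 libraries that share group and depth, and carry no P-value.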

How the data were processed

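Per the labels, heart RNA of all animals was isolated and sequenced at one time. The authors mapped paired ends with STAR to mm10, and featureCounts gave strand-specific totals of unique reads for each RefSeq gene. They deposited raw counts and log2 values. The offset of the deposited log2 values from log2 CPM was constant for each gene (median SD 0.000816), and followed transcript length. Here, 526 genes were removed because over 4 libraries had a CPM below 0.5. The 3 groups of 3 entered 1 quasi-likelihood fit of edgeR 4.0.16 in R 4.3.3, with TMM scaling and Benjamini-Hochberg adjustment over 13364 genes. CPM used TMM-scaled totals. The standard error is the log2 fold change over the square root of F. Steps were tested on simulated data. Alternatives were DESeq2 1.42.0, limma 3.58.1, other scalings, filters and samples. Named were the 10 genes, the called extremes of each list, and the 5 and 3 nearest profiles. The genes and lists were chosen with earlier results of these data known. Some genes stand in more than 1 list, among them Mgl2, Ccl7, Ccl12 and Spi1, so the counts by list are not independent. Coordinates are GENCODE M21 (GRCm38). Nothing shows that libraries repeat an animal, and P-values measure the spread between 3 animals a group. SDs and standard errors include the spread between animals. Floors are set at 3 counts and cover neither that spread nor counting error. Reads carried no molecular identifiers. Some genes of the lists are not reported here.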

Additional observations from a re-analysis of the deposited data

How the results depend on the processing

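The count of genes called among the 10 was 2 in A + T against S, and 1 with upper-quartile scaling, with library size only, with no filter and without Rn45s, and 5 at an unadjusted P-value under 0.05 with a fold of at least 1.5. Without each animal it ranged from 0 to 4, from 1 to 3 in T against S and from 2 to 4 in A + T against T. The pan-macrophage count in T against S was 1 with upper-quartile scaling and 0 with library size only, and ranged from 0 to 3 without each animal. In A + T against T it was 4 with only the groups compared, and ranged from 1 to 12. Fewer libraries in the fit leave less to estimate the spread from. Some uncalled log2 fold changes turned sign. Leaving out T animal 12 and A + T animal 22 together, chosen after seeing the data, gave -0.56 and -0.29 for Lyve1 in A + T against T and against S, -0.12, -0.092 and -0.21 for Cbr2 in T against S, A + T against T and A + T against S, and 0.18 for Folr2 in A + T against S. Folr2 was also 0.020 with upper-quartile scaling, 0.0049 without Rn45s and 0.00090 with at least 10 counts in every library, and Gas6 was 0.010 with upper-quartile scaling. Without each animal, the log2 fold change in A + T against S ranged from -0.29 to 1.03 for Lyve1, -0.24 to 0.17 for Folr2, -0.21 to 2.58 for Cbr2 and -0.11 to 0.053 for Gas6. In A + T against T it ranged from -0.60 to 0.74 for Lyve1 and -0.65 to 2.22 for Cbr2, and in T against S from -0.38 to 0.21 for Timd4, -0.13 to 0.68 for Cbr2 and -0.0057 to 0.21 for F13a1. Beyond the constructions named, the cause was not tested. No paired analysis was possible because the groups share no animal numbers. Counts of 3 or fewer limit Ccl8 in A + T to bounds.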

Other observations

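Markers of further cell types gave few calls. Of 4 dendritic cell genes tested, 0 passed in edgeR's test of A + T against T, 3 rose at an unadjusted P-value under 0.05 and DESeq2 called 1. Of 5 neutrophil genes, 0 passed in A + T against S, all 5 were higher at an unadjusted P-value under 0.05, and DESeq2 and limma-voom called 0. Their summed level reached 246.2 CPM in A + T, in animal 22, and 4.15 to 25.5 CPM in S. Of 4 mesothelium genes and 2 adipocyte genes tested, 0 passed in each comparison, also with DESeq2, with limma-voom and at an unadjusted P-value under 0.05. Single libraries still stood out. The summed mesothelium level was 144.7 CPM in A + T animal 22 and at most 98.1 elsewhere. The summed adipocyte level was 28.4 CPM in T animal 12 and at most 9.47 elsewhere. Of 6 genes of heart muscle, 2 rose and 1 fell in T against S, the most Pln, an inhibitor of the calcium pump (0.38 ± 0.12, adjusted P = 0.0415), and Actc1, cardiac actin (-0.90 ± 0.21, adjusted P = 0.0128). That number was 1 without any 1 animal of S, T animal 11 or 15 or A + T animal 21.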
